A study of Mus musculus with 26 samples.

Results

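TGF-beta signaling is a brake on CD8+ T cells. The ligand, encoded in T cells mostly by *Tgfb1*, binds the type II receptor (*Tgfbr2*), which recruits and phosphorylates the type I receptor (*Tgfbr1*), and the proteoglycan betaglycan (*Tgfbr3*) presents ligand to the type II receptor. The type I receptor phosphorylates SMAD2 and SMAD3, which enter the nucleus with the common SMAD4. SMAD7 inhibits the receptors, and SKI and SnoN (*Skil*) are co-repressors that bind SMAD proteins on target genes. In T cells the pathway is known for restraining cytotoxic genes and for inducing the residency integrin chain CD103 (*Itgae*).

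These 10 genes, the ligand, the 3 receptors, 4 SMADs and 2 co-repressors, were taken by name from 35865 genes in the deposited RNA-seq data, by a list drawn up with earlier results of these data known. All 10 passed the filter on low counts (at least 10 estimated counts in at least 6 libraries). The cells were TCR_Tg101_, CD8+ T cells whose transgenic receptor recognizes the mouse leukemia line C1498, sorted by flow cytometry after adoptive transfer. All mice were labelled C57BL/6, 6 week old and wild type. The 3 control libraries came from spleens, 2 from naive cells at day 0 (replicates 1 and 2) and 1 from untreated mice at day 18 (replicate 3). Leukemia-bearing mice gave 2 early liver libraries (day 7), 3 mid liver libraries (days 13 and 14), 2 late liver libraries (days 16 and 18), 2 early spleen libraries (day 7) and 1 spleen library at day 14. One library held undivided cells, which keep the division dye CTV, at day 18 and carries the label spleen. The study describes sorting such cells from livers for its other assays, so the tissue of this library, and hence of its comparisons, is uncertain. Another library of naive control cells was primed with oligo-dT, and its label gives no day. Its title, TG-10-DT, shares the TG-10 of control replicate 1, and whether both were made from the same cells is not stated. Nothing in the labels says how many mice each library holds, so p-values measure the spread between these libraries. All controls were splenic, so leukemia and tissue cannot be told apart in comparisons of liver libraries with controls.

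Values per library are CPM (counts scaled to the size of the library, here with TMM factors), and totals ranged from 22918996 to 71358287 estimated counts. Each member had at least 148 estimated counts in each low-input library, and counting error was not compared with the spread between libraries. The sample titles fall into 2 series, TG and XC, which were taken as the sequencing batches. Control replicate 1, mid replicate 1 and late replicate 1 were of the TG series, and the other 11 low-input libraries of the XC series. The 6 T cell markers (*Cd3d*, *Cd3e*, *Cd3g*, *Cd8a*, *Cd8b1* and *Trac*) summed to 3465 to 8447 CPM in the low-input libraries, with none of them at 0. The day 0 controls also carried RNA of other cells. The erythroid list summed to 2465 and 9990 CPM in control replicates 1 and 2 and to 62.7 CPM in replicate 3, and the macrophage and monocyte list to 600.5, 112.2 and 9.17 CPM. The 2 early liver libraries were unlike each other. *Gzmb*, which encodes the cytotoxic protease granzyme B, was at 225.4 CPM in early replicate 1 and 5.03 in replicate 2, against 1.77 to 3.13 in controls and 280.1 to 1926 in mid and late liver. Early liver results are therefore given for each library.

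**Figure D1:**
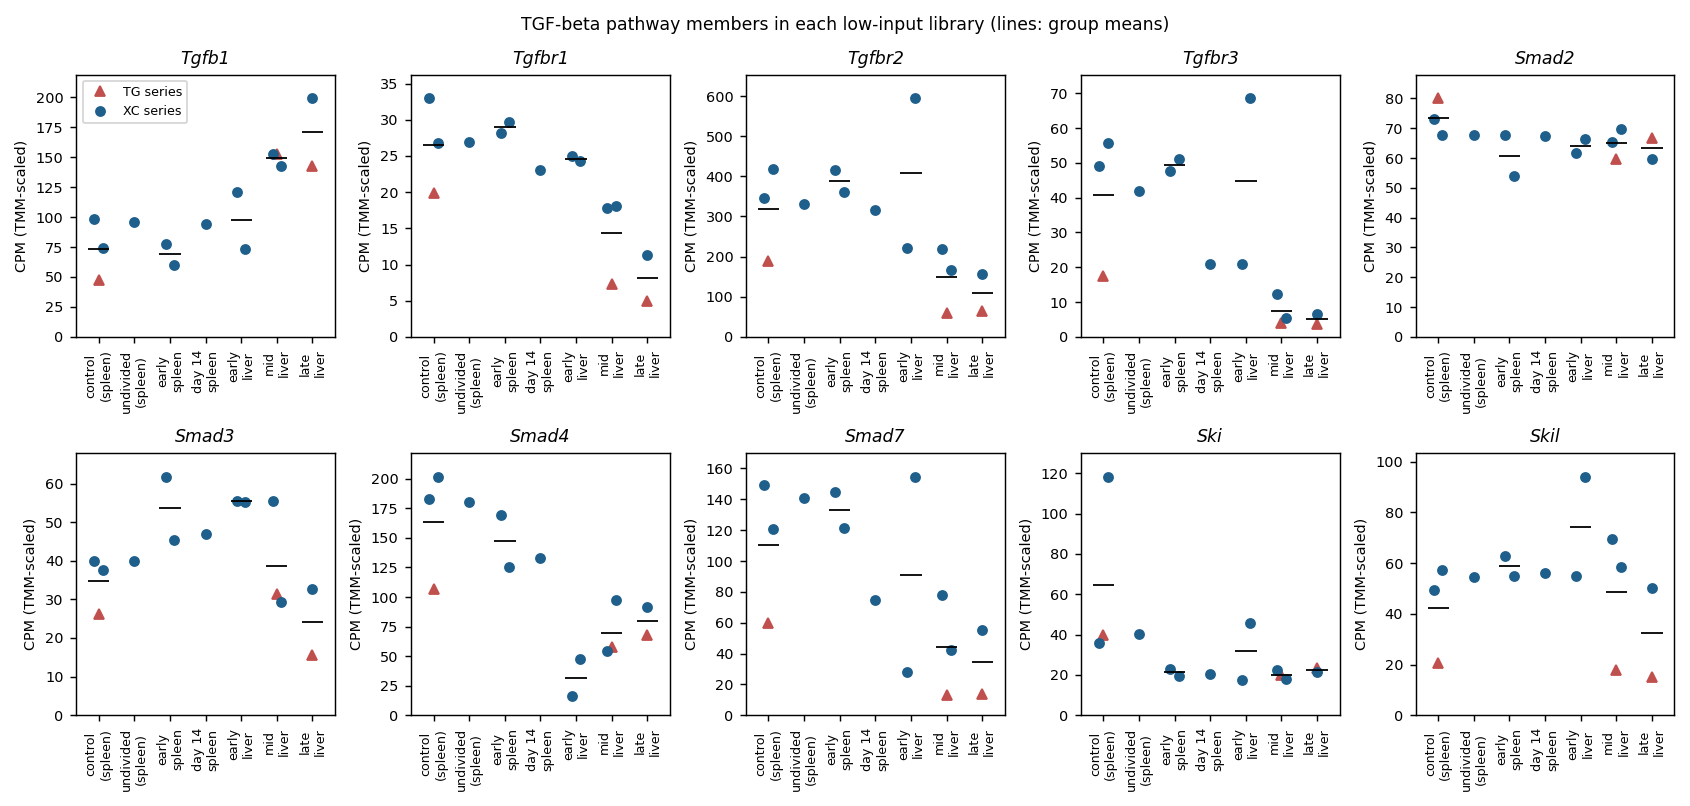
CPM (TMM-scaled, linear axes from 0) of the 10 genes in the 14 low-input libraries by group. Triangles are TG libraries, circles XC libraries and lines group means. *Tgfb1* was higher and *Tgfbr1* and *Tgfbr3* were lower in all 5 mid and late liver libraries than in the 3 controls, while *Smad2* stayed between 54.0 and 80.0 CPM throughout.

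The first comparison asked how the members stood in the liver at mid and late time points, 5 libraries entering as the mean of the mid and late groups, against the 3 controls. *Tgfb1* rose, *Tgfbr1*, *Tgfbr2*, *Tgfbr3*, *Smad4*, *Smad7* and *Ski* fell, and *Smad2*, *Smad3* and *Skil* did not pass the test. Thus 7 of 10 members passed an adjusted p of 0.05 (edgeR quasi-likelihood test, two-sided, group and series in the model, Benjamini-Hochberg over 14600 genes), where 47.3% of all tested genes did. Higher calls numbered 1 of 10 members, against 23.5% of all genes, and lower calls 6 of 10, against 23.8%. The median log2 fold change was -1.20 over the members and -0.05 over all tested genes. The 5 liver libraries did not overlap the controls for 5 of 10 members, 1 above and 4 below, against 37.7% of all tested genes (19.6% above and 18.0% below). Within each series all mid and late libraries lay on one side of the controls for 7 members, the same 7 (1 above and 6 below), against 55.6% of all tested genes (28.6% above and 27.0% below). The sign was the same in both series for 8 members, against 84.4% of all genes. The calls rested on control replicate 1, the only TG control. Without it no member passed, with adjusted p-values of 0.051 or more and 6 genes called in all, although each of the 7 members kept its direction. Their log2 fold changes were then 0.94 for *Tgfb1*, -1.08 for *Tgfbr1*, -1.12 for *Tgfbr2*, -2.77 for *Tgfbr3*, -1.23 for *Smad4*, -1.24 for *Smad7* and -1.91 for *Ski*.

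*Tgfb1*, the ligand, lies on chromosome 7 (GRCm38, 25687002 to 25705077, plus strand). It was at 47.9, 98.6 and 73.9 CPM in the controls, at 152.8, 152.8 and 142.4 in mid liver and at 143.0 and 199.1 in late liver. Every mid and late library stood above every control. The log2 fold change was 1.17 ± 0.24 (SE, edgeR adjusted p = 0.00786). Within the series, the log2 ratio of the mean CPM was 1.63 in TG (1 control, 2 liver libraries) and 0.93 in XC (2 controls, 3 liver libraries). At the early time point liver was at 121.1 and 73.7 CPM, with only replicate 1 above the controls. The spleen libraries (77.4 and 60.2 at day 7, 94.1 at day 14) and the undivided library (96.2) lay inside the control range.

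All 3 receptors fell. *Tgfbr1* (chromosome 4, 47353222 to 47414931, plus strand), the type I signaling receptor, was at 19.9, 33.0 and 26.8 CPM in controls, at 7.31, 17.8 and 18.0 in mid liver and at 4.94 and 11.3 in late liver. All 5 liver libraries were below all controls, and each late library was below the mid libraries of its series. The log2 fold change was -1.34 ± 0.18 (edgeR adjusted p = 0.00535), and the log2 ratio within series was -1.70 in TG and -0.93 in XC. Its level was 25.0 and 24.3 CPM in early liver, 28.2 and 29.7 in early spleen, 23.1 at day 14 in spleen and 26.9 in undivided cells, all within the control range.

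*Tgfbr2* (chromosome 9, 116084293 to 116175360, minus strand), the ligand-binding type II receptor, was at 190.1, 345.2 and 418.8 CPM in controls. It was at 60.0, 219.6 and 166.7 in mid liver and at 63.7 and 156.6 in late liver. Mid replicate 2 (219.6) overlapped control replicate 1 (190.1), which are of different series, and within each series all liver libraries were below the controls. The log2 fold change was -1.32 ± 0.30 (edgeR adjusted p = 0.0104), and the log2 ratio within series was -1.62 in TG and -1.08 in XC. Without the series term the adjusted p was 0.0746.

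*Tgfbr3* (chromosome 5, 107106570 to 107289629, minus strand), the co-receptor betaglycan, fell furthest of the 10. It was at 17.4, 49.1 and 55.8 CPM in controls, at 4.11, 12.4 and 5.36 in mid liver and at 3.73 and 6.63 in late liver. The highest liver value was below the lowest control. The log2 fold change was -2.56 ± 0.41 (edgeR adjusted p = 0.0063), and the log2 ratio within series was -2.15 in TG and -2.69 in XC. The day 14 spleen library was at 21.0 CPM, above control replicate 1 and below both XC controls.

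The early liver libraries held *Tgfbr2* and *Tgfbr3*, but not *Tgfbr1*, at unlike levels. *Tgfbr2* was at 220.5 CPM in replicate 1 and 594.3 in replicate 2, and *Tgfbr3* at 21.1 and 68.5. Replicate 2 was above every other low-input library for both genes, and replicate 1, which held the higher *Gzmb*, was below both XC controls. No member passed in early liver against control, where 0.0% of all genes did (edgeR; 0 genes called). At an unadjusted p under 0.05 edgeR gave 1493 genes with 1 member among them, and DESeq2 called 350 genes with 1 member, in both cases *Smad4*.

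Promoters are shown for *Tgfbr1*, *Tgfbr2* and *Ski*, which fell in mid and late liver and for which the reference table holds a window of 300 bases at a transcription start (RefSeq, GRCm38.p6). Capitals mark the SMAD box CAGAC (or GTCTG on the other strand) and the GC-rich SMAD site GGCGCC. Each window has its own line, 5′ to 3′ on the strand of the gene.
Tgfbr1, chr4:47352972-47353271, plus strand: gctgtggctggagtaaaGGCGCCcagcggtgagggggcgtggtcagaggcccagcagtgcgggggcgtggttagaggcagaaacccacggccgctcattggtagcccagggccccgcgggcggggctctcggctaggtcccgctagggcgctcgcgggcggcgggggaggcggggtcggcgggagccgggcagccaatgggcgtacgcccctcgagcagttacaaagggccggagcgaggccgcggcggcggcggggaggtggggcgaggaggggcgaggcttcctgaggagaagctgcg
Tgfbr2, chr9:116175314-116175613, minus strand: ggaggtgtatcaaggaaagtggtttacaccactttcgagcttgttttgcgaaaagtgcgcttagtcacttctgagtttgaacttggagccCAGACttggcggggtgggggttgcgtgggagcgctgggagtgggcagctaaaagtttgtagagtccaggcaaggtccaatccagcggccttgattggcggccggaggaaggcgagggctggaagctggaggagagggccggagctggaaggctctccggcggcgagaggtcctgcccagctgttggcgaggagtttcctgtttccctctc
Ski, chr4:155222486-155222785, minus strand: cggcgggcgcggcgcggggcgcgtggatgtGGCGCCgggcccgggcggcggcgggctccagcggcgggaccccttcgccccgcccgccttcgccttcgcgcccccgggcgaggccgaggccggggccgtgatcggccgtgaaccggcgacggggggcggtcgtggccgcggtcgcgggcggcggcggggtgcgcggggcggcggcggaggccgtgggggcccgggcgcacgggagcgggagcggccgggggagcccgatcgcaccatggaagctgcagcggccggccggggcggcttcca
The search covered both strands and also the palindromic SMAD element GTCTAGAC, which contains neither of the other motifs and was in none of the windows. GGCGCC occurred once in the *Tgfbr1* window and once in the *Ski* window, and CAGAC once in the *Tgfbr2* window. A second *Tgfbr1* window (chr4:47385966-47386265) held CAGAC once, and the *Tgfb1* and *Smad3* windows held none of the 3 motifs. Of 32851 promoter windows of the same length, 49.6% held CAGAC, 11.9% GGCGCC and 0.213% GTCTAGAC. The table gave windows for 5 of the 10 members.

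*Smad4*, on chromosome 18, is the shared partner of the receptor-activated SMADs. It was at 107.1, 182.7 and 201.8 CPM in controls, at 57.4, 53.9 and 97.7 in mid liver and at 67.6 and 91.2 in late liver. All 5 liver libraries were below all controls, and the log2 fold change was -1.08 ± 0.35 (edgeR adjusted p = 0.0327). The log2 ratio within series was -0.78 in TG and -1.25 in XC. *Smad4* was lowest at the early time point, at 15.8 and 47.5 CPM in the 2 liver libraries, below every other low-input library. The early spleen libraries of the same day were at 169.4 and 125.5 CPM and did not overlap them. The log2 difference of early liver from early spleen was -2.22 ± 0.47 and from control -2.52 ± 0.48. With early liver replicate 1 left out they were -1.64 and -1.93, and with replicate 2 left out -3.22 and -3.52. Each of these fits leaves 1 early liver library, so its spread comes from the other groups and no p-value is given. With both libraries neither passed after adjustment by edgeR (adjusted p = 0.545 and 0.455, unadjusted p = 0.000861 and 0.000716). DESeq2 called both, with adjusted p of 0.00286 and 4.96e-05. In the comparison of early liver with early spleen edgeR called 0.0% of all genes (0 genes, with 1391 at an unadjusted p under 0.05), and DESeq2 called 56.

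*Smad2* (chromosome 18) and *Smad3* (chromosome 9, 63646767 to 63757994, minus strand), the SMADs that the receptors phosphorylate, did not pass the test. *Smad2* was the steadiest member, at 80.0, 73.0 and 67.7 CPM in controls, 59.8, 65.3 and 69.6 in mid liver and 66.8 and 59.8 in late liver. In early liver it was at 61.8 and 66.4 CPM. Its log2 fold change in mid and late liver was -0.22 ± 0.13 (edgeR adjusted p = 0.193). *Smad3* was at 26.3, 39.9 and 37.7 CPM in controls, 31.4, 55.5 and 29.2 in mid liver and 15.5 and 32.7 in late liver. Its log2 fold change was -0.17 ± 0.22 (edgeR adjusted p = 0.537). Both early liver libraries were at 55.5 and 55.2 CPM and both early spleen libraries at 61.8 and 45.4, above every control, and neither difference passed after adjustment (edgeR adjusted p = 0.586 and 0.878). 

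*Smad7*, on chromosome 18, encodes the inhibitory SMAD and is itself a well-known target of the pathway. It was at 59.9, 149.6 and 121.0 CPM in controls, at 12.9, 77.9 and 42.0 in mid liver and at 13.5 and 55.2 in late liver. Mid replicate 2 overlapped control replicate 1, and within each series the liver libraries were below the controls. The log2 fold change was -1.61 ± 0.52 (edgeR adjusted p = 0.0369), and the log2 ratio within series was -2.18 in TG and -1.21 in XC. The early liver libraries were at 27.7 and 154.7 CPM, the former below and the latter above all controls. With each of the 8 libraries left out in turn, the call was lost in 7 cases for *Smad4*, in 7 for *Smad7* and in 6 for *Ski*, against 1 case, that without control replicate 1, for *Tgfb1* and for each receptor.

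*Ski* (chromosome 4, 155154075 to 155222592, minus strand) encodes a co-repressor of SMAD target genes. It was at 39.8 and 36.0 CPM in the day 0 controls and at 118.3 in the day 18 control. Mid liver was at 19.8, 22.3 and 18.1 CPM and late liver at 23.3 and 21.2, below all controls. The early spleen libraries (23.1 and 19.6) and the day 14 spleen library (20.6) lay in the same range, and the undivided library was at 40.1. Early liver was at 17.5 CPM in replicate 1 and 45.9 in replicate 2, the latter above both day 0 controls. The log2 fold change of mid and late liver against control was -1.57 ± 0.46 (edgeR adjusted p = 0.0263), with within-series log2 ratios of -0.88 in TG and -1.91 in XC. Without control replicate 3 it was -0.85 (adjusted p = 0.0726). In early spleen against control it was -1.66 ± 0.57 (edgeR adjusted p = 0.772), and -0.79 without control replicate 3. No gene passed in that comparison (0.0% of 15449), with 970 at an unadjusted p under 0.05 and 11 called by DESeq2. *Skil* (chromosome 3, 31095058 to 31122577, plus strand), which encodes SnoN, was at 20.6, 49.3 and 57.2 CPM in controls, at 18.0, 69.7 and 58.5 in mid liver and at 15.2 and 50.0 in late liver. In early liver it was at 54.8 CPM in replicate 1 and 94.1 in replicate 2, the latter above every other low-input library. The values of *Skil* followed the series, and its log2 fold change in mid and late liver was -0.08 ± 0.20 (edgeR adjusted p = 0.759).

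By time point, mid liver against control called 6 of 10 members (*Tgfb1* higher, the 3 receptors, *Smad4* and *Ski* lower), where 31.3% of all genes passed (17.3% higher, 13.9% lower). Late liver against control called 4 of 10 (*Tgfb1* higher and the 3 receptors lower), where 37.5% passed (19.8% higher, 17.7% lower). The log2 fold changes at the mid and late time points were 1.06 ± 0.26 and 1.28 ± 0.28 for *Tgfb1*, -1.0 ± 0.21 and -1.67 ± 0.25 for *Tgfbr1*, -1.23 ± 0.35 and -1.41 ± 0.40 for *Tgfbr2* and -2.43 ± 0.48 and -2.69 ± 0.58 for *Tgfbr3*. At the mid time point no member was called without control replicate 1 (1 gene called in all) or 2 (1 gene). Nor was any without mid replicate 1 (0 genes) or 3 (0 genes). Without control replicate 3, 2 members were called, with 2332 genes in all. At the late time point no member was called without control replicate 1 (19 genes in all). Leaving out either late library leaves 1 in that group, and no member or other gene was called. Late against mid liver, tested directly, called no member and no gene (0.0% of 14600, edgeR, with 780 genes at an unadjusted p under 0.05 and 34 called by DESeq2). The largest difference there was in *Tgfbr1*, at -0.67 ± 0.24 on the log2 scale (adjusted p = 0.91), so a further fall between these time points was not shown.

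**Figure D2:**
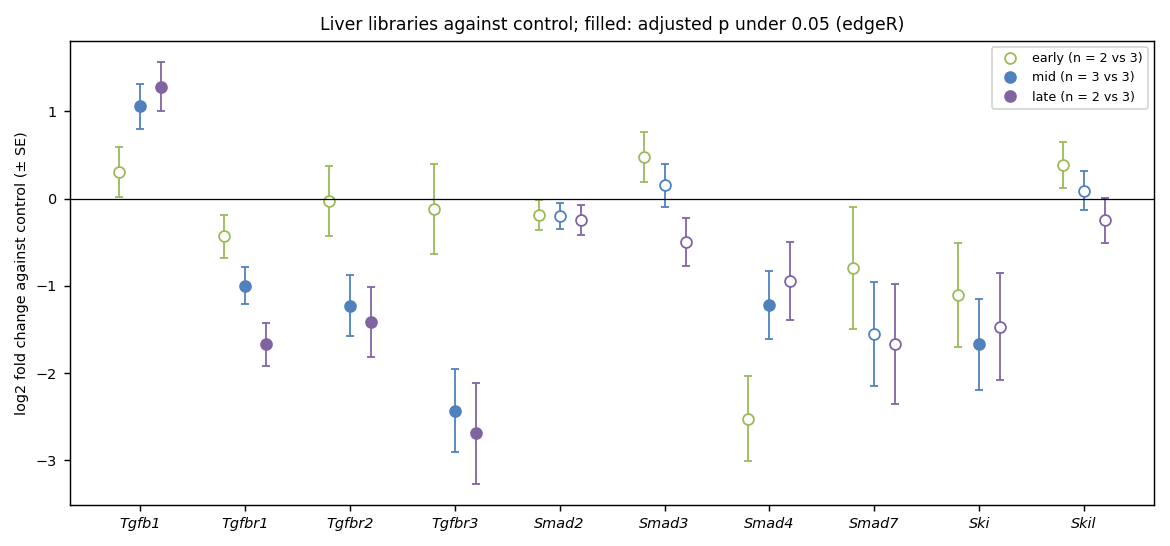
Log2 fold changes (± SE, edgeR) of each member in early, mid and late liver against the same 3 controls. Filled points passed an adjusted p of 0.05, which 6 members did at the mid, 4 at the late and 0 at the early time point.

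The undivided cells at day 18 were compared with controls and with late liver. No member passed against the controls, and the log2 differences ranged from -0.76 ± 0.70 (*Ski*) to 0.29 ± 0.35 (*Tgfb1*). No gene passed by edgeR (0.0% of 15449, with 173 at an unadjusted p under 0.05) or by DESeq2 (0 genes). The undivided group had 1 library, assumed to vary like the other groups, and the SE of the members' log2 differences was 0.23 to 0.80. Late liver against the undivided library gave log2 differences of -2.46 ± 0.65 for *Tgfbr3*, -1.35 ± 0.29 for *Tgfbr1* and 1.01 ± 0.40 for *Tgfb1*, none past the threshold (edgeR adjusted p = 0.0899, 0.0735 and 0.165, with 0.0% of genes called and 3748 at an unadjusted p under 0.05). DESeq2 called 1938 genes there, *Tgfbr1* and *Tgfbr3* among them. 

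Levels were compared between members per length, as the sum of deposited TPM (transcript abundance scaled by length and depth). In the controls the order was *Smad4* (71.5 ± 30.6 TPM, SD, n = 3), *Tgfbr2* (67.6 ± 37.0), *Smad7* (40.3 ± 23.8), *Tgfb1* (38.7 ± 16.8) and *Smad2* (37.5 ± 4.25), whose ranges overlapped from each to the next. The ranges of *Smad2* and *Ski* did not overlap, while those of *Smad7* and *Tgfb1* reached into the range of *Ski*. *Ski* (13.0 ± 9.83), *Tgfbr3* (9.89 ± 5.22), *Skil* (9.84 ± 6.17), *Smad3* (7.37 ± 1.94) and *Tgfbr1* (6.45 ± 2.11) followed with overlapping ranges. In the 5 mid and late liver libraries *Tgfb1* was first in each, at 71.8 ± 23.3 TPM (SD, n = 5), with a range apart from that of the next gene, *Smad2* (25.6 ± 8.15), while the ranges of *Smad4* and *Tgfbr2* reached into that of *Tgfb1*. *Smad4* (25.5 ± 12.1), *Tgfbr2* (25.2 ± 19.1), *Smad7* (12.8 ± 10.5), *Skil* (9.66 ± 7.13), *Smad3* (6.49 ± 3.97) and *Ski* (3.58 ± 0.82) followed with overlapping ranges, and *Tgfbr1* (2.40 ± 1.43) and *Tgfbr3* (1.34 ± 0.94) came last. *Tgfbr2* was above *Tgfb1* in each of the 3 controls and below it in each of the 5 mid and late liver libraries. *Tgfb1* was also first by TPM in early liver replicate 1 and in the oligo-dT control library, and had rank 4 in all 3 low-input controls.

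Across the 14 low-input libraries, after removal of the series effect, the receptors varied together and against the ligand. Pearson's r of log2 CPM was 0.94 between *Tgfbr2* and *Tgfbr3*, 0.83 between *Tgfbr1* and *Tgfbr3* and 0.82 between *Tgfbr1* and *Tgfbr2*. For *Tgfb1* it was -0.94 with *Tgfbr2*, -0.89 with *Tgfbr3* and -0.89 with *Tgfbr1*. *Smad7* varied likewise, at 0.87 with *Tgfbr2* and -0.78 with *Tgfb1*. These are descriptions over libraries that share groups and series. The distribution of r over other gene pairs was not computed, so the values are not shown to be particular to the receptors. For the 3 members with the largest absolute fold changes, the 3 most alike of 5856 genes with a mean log2 CPM of at least 5 were taken. For *Tgfbr3* they were *Ssbp2* (r = 0.98), *Idh2* (0.97) and *Lef1* (0.97), the last a transcription factor of naive T cells. For *Smad7* they were *Kctd2* (0.98), *Ppp1r13b* (0.97) and *Nr2c2* (0.96), and for *Ski* they were *Irf2bp2* (0.91), *Brd1* (0.82) and *Usp7* (0.82).

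Transcript shares were examined because gene sums can hide a change between isoforms. Of the estimated counts of *Tgfbr2*, Tgfbr2-201 held 30.6, 8.76 and 20.5% in the 3 low-input TG libraries and 53.0 to 59.6% in the 11 XC libraries, and 8.69% in the oligo-dT library. All TG libraries lay below all XC libraries. Within the TG series the control also lay above both liver libraries (1 control and 2 liver libraries). The other transcript, Tgfbr2-202 (8092 bases against 3476), carries a whole exon of 75 bases in its coding sequence (1776 bases against 1701, 25 residues), shown here because it is what separates the 2 receptor isoforms. It lies at chr9:116158271-116158345, minus strand, GRCm38.
Tgfbr2-202 exon absent from Tgfbr2-201: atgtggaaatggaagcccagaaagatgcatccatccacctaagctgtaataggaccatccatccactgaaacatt
Within the XC series the share of Tgfbr2-201 was 58.1 and 55.3% in controls and 55.8 to 59.6% in mid and late liver, so both isoforms fell together there. A similar split by series was seen for *Skil*. Skil-203, which has a coding stretch of 138 bases (46 residues) that Skil-204 lacks, held 0.909 to 9.53% in the low-input TG and 17.8 to 34.9% in the XC libraries.

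*Ski* was the member with the least stable transcript shares. Ski-201, which encodes the full protein, held 99.1% of its estimated counts in the day 18 control and 5.44 to 73.7% in the other low-input libraries. Ski-203, annotated as a processed transcript without a coding sequence, held 0.868% in that control and 22.2 to 89.3% elsewhere. In CPM before TMM scaling, Ski-201 was at 130.1 in the day 18 control and at no more than 16.1 in any other low-input library. The high *Ski* level of that control was thus held by Ski-201. For 16 shares in 7 members, controls were tested against mid and late liver by an exact permutation test (two-sided, 3 against 5 libraries, smallest possible p 0.0357). None passed after Benjamini-Hochberg adjustment, which needed at least 12 shares at that smallest p, and the smallest adjusted p was 0.571. That was the share of Tgfbr1-203, a shorter coding transcript of *Tgfbr1* (exact permutation p = 0.0357, unadjusted). It was at 13.1, 15.1 and 16.3% in controls, 9.60, 8.99 and 12.6% in mid liver and 7.60 and 13.0% in late liver, below every control and, within each series, below the controls of that series. The permutation did not take account of the series. For 6 of the 16 shares the 3 TG and the 8 XC libraries of the 11 did not overlap.

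**Figure D3:**
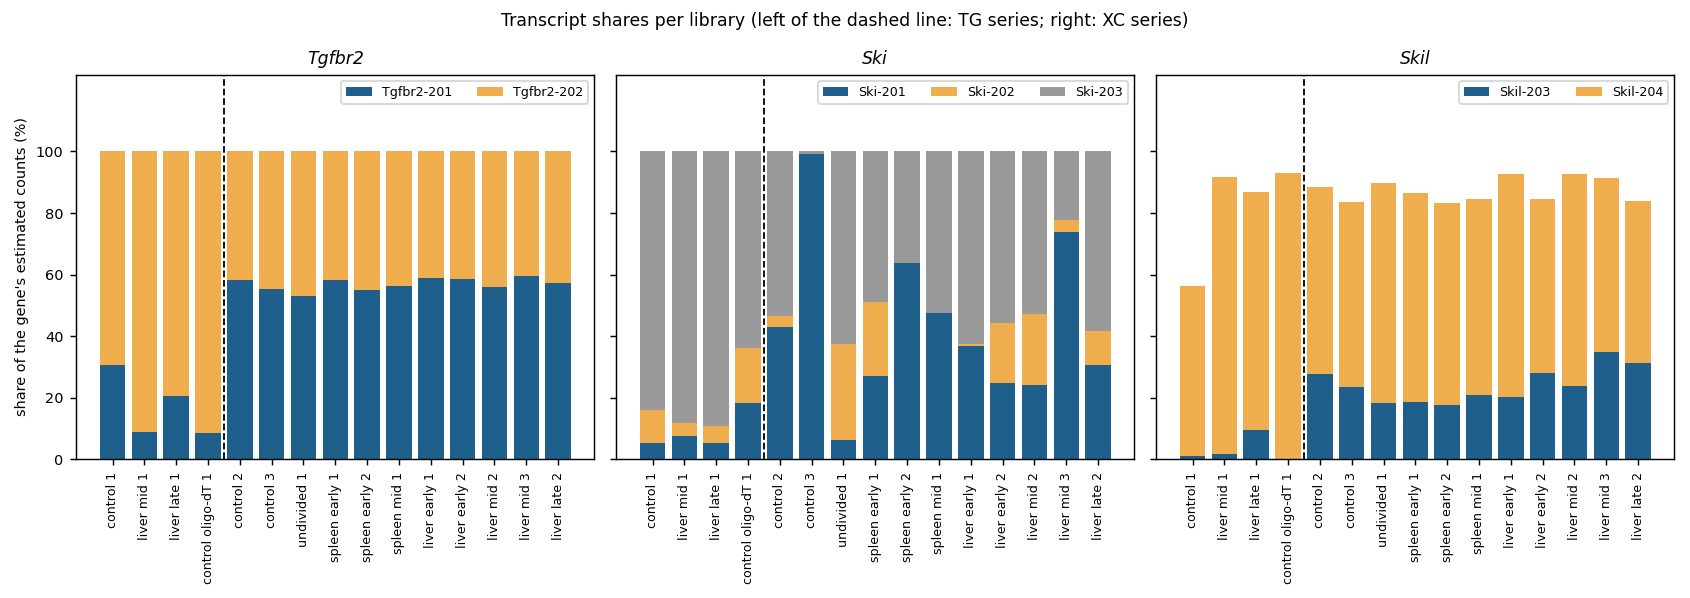
Share (%) of the estimated counts of *Tgfbr2*, *Ski* and *Skil* held by each main transcript, as stacked bars per library, with the TG series left of the dashed line and minor transcripts not drawn. Tgfbr2-201 holds 53.0% or more in each XC library and at most 30.6% in each TG library, and Ski-201 holds 99.1% in control replicate 3.

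A list of 53 further genes of the pathway was then read in the same fit. Of 48 tested, 8 were higher and 16 lower in mid and late liver than in control, and 24 did not pass, a share near the 47.3% called over all genes (23.5% higher and 23.8% lower), with a median log2 fold change of -0.36 against -0.05 over all genes. Of the ligands and their activators 4 were higher and 1 lower of 10 tested. *Ltbp3* (log2 fold change 5.79 ± 1.08) and *Ltbp4* (3.41 ± 1.08), which encode latent TGF-beta binding proteins, and *Lrrc32* (2.83 ± 0.75), which encodes the anchor protein GARP, rose from at most 0.47 CPM in controls to 0.53 to 7.64 CPM, so these rises were between low levels. Leaving out 1 library moved them to 6.45 for *Ltbp3* (control replicate 3), 4.01 for *Ltbp4* (late replicate 2) and 3.75 for *Lrrc32* (control replicate 1, adjusted p = 0.056, no longer called). *Tgfb2* was too low to be tested and *Tgfb3* was between 0.29 and 2.28 CPM in the low-input libraries, so *Tgfb1* was the only TGF-beta ligand gene with appreciable counts. Of the other receptors of the superfamily 5 of 9 were lower and 1 was higher. *Acvrl1*, a type I receptor best known in endothelium, fell from 17.0, 13.7 and 6.95 CPM to 0.04 to 0.26 CPM (-6.23 ± 1.12). The activin receptors *Acvr1b* (-1.78 ± 0.34) and *Acvr2b* (-1.59 ± 0.30) and the pseudoreceptor *Bambi* (-1.66 ± 0.46) fell. *Acvr1* rose (2.02 ± 0.54), from between 0.15 and 0.43 CPM in controls to between 0.25 and 2.29 CPM. Its mid replicate 2 (0.25) lay inside the control range.

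Of the regulators of SMADs and receptors 2 were higher and 5 lower of 16 tested. *Nedd4l*, an E3 ligase for activated SMADs and receptors, fell from 30.7, 57.4 and 58.5 CPM to 7.55 to 24.4 CPM (-1.87 ± 0.31), and *Zfyve9*, which encodes the receptor anchor SARA, fell by 1.59 ± 0.42 on the log2 scale from 0.87 to 1.45 CPM in the controls. *Fkbp1a*, whose product FKBP12 binds the type I receptor, rose from 203.3, 160.7 and 156.9 CPM to 388.0 to 888.7 CPM (1.61 ± 0.31). Of the nuclear partners 1 was higher and 3 lower of 10, and *Hdac1*, a histone deacetylase, rose by 1.04 ± 0.20. Of the other SMADs *Smad1* and *Smad5*, which serve bone morphogenetic protein receptors, were lower, *Smad9* did not pass and *Smad6* was not tested. By edgeR the 12 pathway genes given with fold changes had adjusted p-values of 0.00627 to 0.0318, and all of them share the controls of the members.

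**Figure D4:**
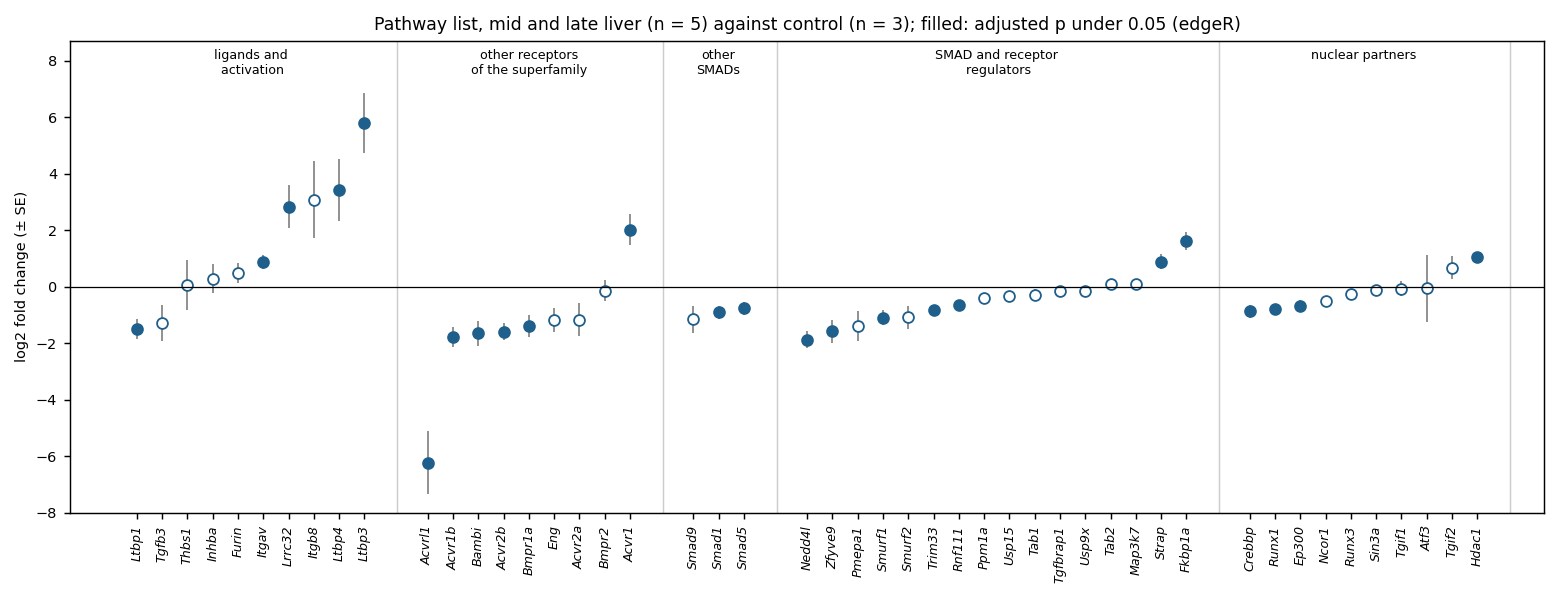
Log2 fold changes (± SE, edgeR) of the 48 tested pathway genes in mid and late liver against control, sorted within each role. Filled points passed an adjusted p of 0.05, 8 above and 16 below 0.

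Genes taken to respond to TGF-beta were listed by direction, and the response of each to TGF-beta was not tested in these cells. Of 10 tested genes listed as induced, 4 were higher, 2 lower and 4 did not pass, where 23.5% of all genes were higher and 23.8% lower. *Itgae*, the CD103 chain, fell from 96.1, 166.3 and 219.3 CPM in controls to 12.0, 37.5 and 19.4 in mid liver and 7.44 and 8.09 in late liver (log2 fold change -3.50 ± 0.61, edgeR adjusted p = 0.007). It was at 42.5 and 311.4 CPM in early liver, 170.0 and 164.3 in early spleen and 170.8 in undivided cells, and at 76.0 in the day 14 spleen library, below every control. *Rgs16*, a regulator of G protein signaling, rose from at most 0.42 CPM to 91.3 to 211.0 CPM (9.28 ± 1.46). *Tgfbi*, an extracellular matrix gene, fell by 4.05 ± 0.77, but only the day 0 controls were high (16.1 and 12.0 CPM against 0.93 in the day 18 control). Against the day 18 control alone its log2 fold change was -0.82 (adjusted p = 0.37), and the part of the macrophage RNA in the day 0 controls in this value was not tested. Against that control *Bambi* was at -0.43 (adjusted p = 0.629). Of 10 genes listed as repressed by TGF-beta in T cells, 7 were higher and 0 lower, again beside 23.5% and 23.8% of all genes. The lists were drawn up with earlier results of these data known, and the study reports *Gzma*, *Gzmb* and *Ifng* among its upregulated genes. The count is therefore a description, and TGF-beta signaling was not tested. *Gzmb* (8.63 ± 1.43), *Ifng* (6.35 ± 1.31), *Gzma* (4.93 ± 1.39), *Fasl* (4.93 ± 1.19) and *Tbx21* (4.01 ± 0.78), which encode granzymes, interferon-gamma, the death ligand FasL and the transcription factor T-bet, were the largest rises. *Gzma* (9.07, 7.64 and 0.48 CPM) and *Fasl* (2.12, 1.80 and 0.19 CPM) were uneven in the controls. Without control replicate 2 their log2 fold changes were 6.2 and 5.54, and that of *Tgfbi* was -3.27. Without control replicate 1 the 20 pathway and responding genes given with fold changes all lost their calls. With each of the 8 libraries left out in turn, *Ltbp4* lost its call in 7 cases, and *Lrrc32*, *Acvr1*, *Bambi*, *Zfyve9* and *Gzma* in 3 each. The median log2 fold change was 3.31 over the repressed and 0.14 over the induced list, against -0.05 over all genes.

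Other cell types in the sorted populations were followed with 11 marker lists. The hepatocyte list summed to 152.5, 16.5 and 2.06 CPM in mid and 259.2 and 60.9 in late liver, led by *Alb* (85.0 and 130.4 CPM in the TG libraries), against at most 0.225 in controls, where 2 to 4 of its 5 genes were at 0. The erythroid list was led by *Hbb-bs* (1934 and 7920 CPM in the day 0 controls). The macrophage and monocyte list was led by *Csf1r* (183.0 CPM) in control replicate 1 and *Lyz2* (37.6) in replicate 2. Among the low-input libraries both lists were highest in the day 0 controls. The neutrophil list was at 156.3, 24.7 and 8.91 CPM in controls (*S100a9* at 78.8 in replicate 1) and at most 1.19 in mid and late liver. The endothelial list rested on *Pecam1*, which naive T cells also express, at 110.4 to 162.7 CPM in controls and 65.1 to 144.5 in mid and late liver. B cell (*Cd79b*, at most 43.1 CPM), dendritic cell (*Itgax* at most 28.4), platelet (at most 12.5 summed), fibroblast (at most 7.59), NK cell (at most 8.90) and CD4 and regulatory T cell lists (at most 5.90) were low in the low-input libraries. In the day 18 control, a single library, *Tgfbr1*, *Tgfbr2*, *Tgfbr3*, *Smad4*, *Smad7* and *Ski* were each above all 5 mid and late libraries and *Tgfb1* below them. The part of other cells in the changes of the members, hepatocytes in the liver libraries included, was not tested. In bulk libraries fewer cells with a transcript and fewer copies per cell cannot be told apart.

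**Figure D5:**
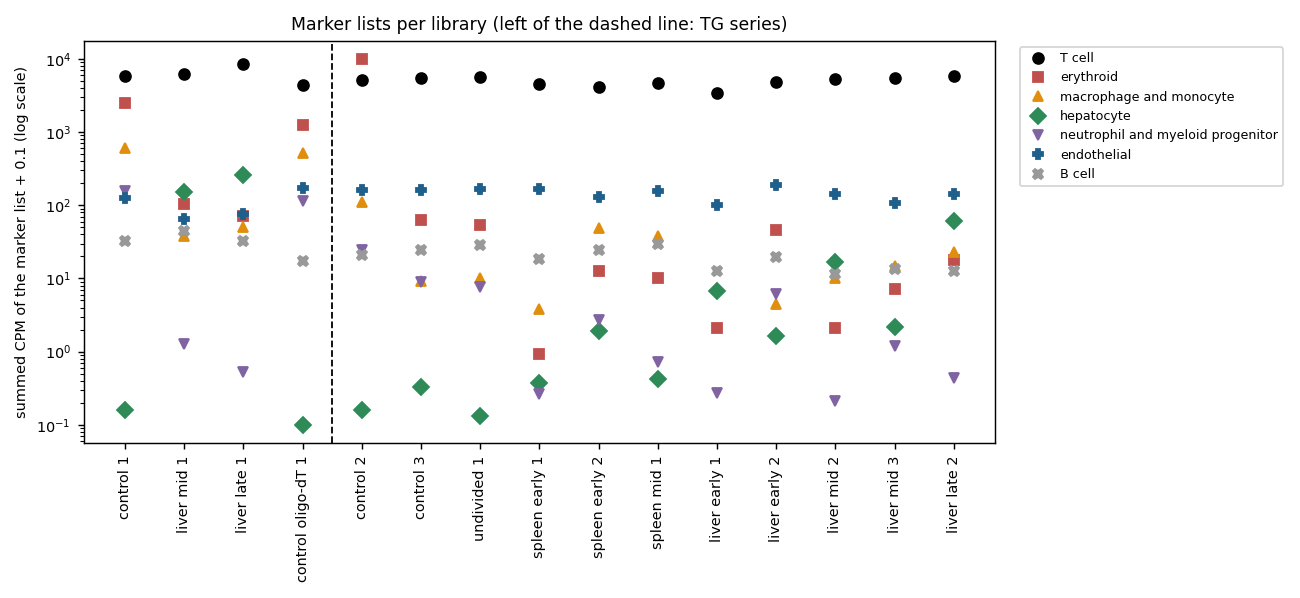
Summed CPM (plus 0.1, log axis) of 7 marker lists in each library, with the TG series left of the dashed line. T cell markers are high in every library. Erythroid and macrophage markers are highest in the day 0 and oligo-dT controls, and hepatocyte markers in the TG mid and late liver libraries.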

How the data were processed

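TCR_Tg101_ were sorted and low-input RNA libraries sequenced in batches, per the study's methods. The authors quantified transcripts with kallisto (builds named in the submitters' processing notes: mm10, GRCm38). Each deposited estimated count is kallisto's share of the reads for a transcript, and the deposited TPM adds scaling by length and depth. Versions are not given in the sources used here. Estimated counts were summed per gene by GENCODE vM21 (98.2% of transcripts matched), the runs of a library were added and gene sums rounded. Kallisto divides reads among similar transcripts, an error the tests do not include. CPM used TMM factors from 0.73 to 1.23.

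Group and series were modelled with the robust quasi-likelihood test of edgeR 4.0.16 (R 4.3.3, two-sided) on 11 libraries (controls, undivided, liver) or 14 with spleen. Genes needed 10 counts in 6 libraries, and p-values were adjusted by Benjamini-Hochberg at 0.05. The SE was taken from the log2 fold change and the F statistic. DESeq2 1.42.0 was an alternative. The oligo-dT library was described only. That the series in the titles marks the sequencing batch was assumed. Named were all members, at most 6 rises and 6 falls per list, and the leading marker genes. The members and lists were chosen with earlier results of these data known.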

Additional observations from a re-analysis of the deposited data

Results flagged for a closer look

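Values above every low-input control were found in 2 libraries that entered no test of the members against controls. In the oligo-dT library of naive control cells *Tgfb1* was at 112.7 CPM, *Tgfbr1* at 44.0, *Smad3* at 42.5, *Smad7* at 202.5 and *Ski* at 128.0. The highest low-input controls were at 98.6, 33.0, 39.9, 149.6 and 118.3 CPM. Control replicate 1, whose title the oligo-dT library shares in part, was at 47.9, 19.9, 26.3, 59.9 and 39.8 CPM. The part of the priming in these differences was not tested. In the day 14 spleen library *Smad3* was at 46.9 CPM. Both are single libraries, and the first differs from the others in its priming.

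*Smad3* stood above the mean of the controls in both early liver libraries and below it in both late liver libraries once the series effect was removed. The early mean exceeded the late mean by 0.98 on the log2 CPM scale, and the difference itself was not tested.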

How the results depend on the processing

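The count of called members in mid and late liver against control (7, of 6905 genes in all) was 5 without the series term (4238) and 4 with the day 0 controls only (5462). In the XC series alone and with the day 18 control only no member and no other gene was called, with late liver or the control left at 1 library. Leaving out each library gave 0 to 5 members in mid and late liver, and 6 to 6206 genes in all. Against control, the mid count (6, of 4567 genes in all) became 1 without the series term (1385), 2 with the day 0 controls (2373), and 0 in the XC series or with the day 18 control, and 0 to 4 with a library left out. The late count (4, of 5475) became 7 without the filter on low counts (6274), 0 in the XC series and 0 with the day 18 control, and 0 to 4 with a library left out. Early liver against control gave 1 by DESeq2 (350 genes in all), 2 without the filter (1480), and 0 to 2 with a library left out (1883 genes without early replicate 2). Early spleen against control gave 1 without the filter (642). Early liver against early spleen gave 1 by DESeq2 (56), 1 without the filter (984), and 0 to 2 with a library left out (961 without early liver replicate 2). Late liver against undivided cells gave 2 by DESeq2 (1938), 4 without the filter (2217) and 4 without both early liver libraries (2017). The XC series alone has 2 controls, and the day 18 control is 1 library, so these fits hold fewer samples. Leaving out an early liver library leaves 1 in that group, so the spread there comes from the other groups. The other causes were not tested.

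The direction of each called member held in each alternative run. *Skil*, which was not called (log2 fold change -0.08), was at 0.15 with counts scaled from TPM, at 0.068 in the XC series, and from -0.18 to 0.077 with a library left out. Over all genes, mid and late liver against control called 6905 in the model used here, 4238 without the series term, 6 without control replicate 1 and 0 in the XC series. Without the filter the median log2 fold change of all genes was -0.21 in that comparison, against -0.05, and the members' fold changes were -2.57 to 1.16 there. The alternatives without both early liver libraries and with the day 18 control only were chosen after seeing the data. No paired analysis was possible because the labels give no replicate numbers that the groups share. Each group held 1 to 3 libraries, and each member had at least 148 estimated counts in each low-input library.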
